A study of Drosophila simulans and Drosophila kikkawai and Drosophila takahashii with 176 samples.

Results

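The 10 genes described here are the angiotensin-converting enzyme (ACE) and neprilysin peptidase genes of Drosophila melanogaster. They were taken from the 17727 genes of the deposited accessory gland (AG) and testis tables by the FlyBase identifiers that belong to their symbols. The ACE family gives 6 of them (Ance, Acer, Ance-2, Ance-3, Ance-4 and Ance-5) and the neprilysin family 4 (Nep1, Nep2, Nep4 and Nep5). All 10 passed the filter on low values.

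The series measured mRNA of the AG and testis in 11 Drosophila species. Each D. melanogaster library was made from pools of about 25 adult males, so that no value belongs to a single fly. The 8 libraries used here were 4 of the AG and 4 of the testis. In each organ 2 libraries came from ED10, a strain other than that of the genome assembly, and 2 from y; cn bw sp, the strain of the reference genome, called the reference strain below, whose males carry the marker alleles of its name. The labels name no treatment. The AG libraries were 30 and z21 from ED10 and 109 and 111 from the reference strain, and the testis libraries were 84 and z22 from ED10 and 108 and 110 from the reference strain. Libraries z21 and z22 were sequenced on a HiSeq 2500, library 30 on a HiSeq 3000 and the other 5 on a HiSeq 4000. In the AG the strains shared no platform, so that strain and platform cannot be told apart there. In the testis, library 84 of ED10 shared the HiSeq 4000 with the reference strain. Levels are in TPM, a transcript abundance divided by transcript length and scaled to the library, and the deposited values added up to between 1245354 and 1959870 in the AG libraries and between 1070165 and 1275873 in the testis libraries.

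The organ labels were checked with marker genes. The summed level of 15 genes for AG seminal proteins was between 209920 and 687710 TPM in the AG libraries and between 61.6 and 5614 TPM in the testis libraries. The summed level of 13 testis germline genes was between 8.81 and 715 TPM in the AG libraries and between 12901 and 20382 TPM in the testis libraries. Within the AG, the germline sum was 20.3 and 8.81 TPM in the ED10 libraries, against 580 and 715 TPM in the reference-strain libraries. Abundant genes weigh most in this sum, such as Mst84Da, with 6.67 and 0.404 TPM in ED10, against 190 and 221 TPM in the reference strain. Among the 13 genes vas alone had a higher mean in ED10 AGs, 0.232 TPM against 0.113 TPM. Within the testis, the AG seminal sum was 185 and 61.6 TPM in the ED10 libraries, against 2272 and 5614 TPM in the reference-strain libraries.

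ACE and neprilysins are zinc metallopeptidases that cut small peptides outside cells. ACE-type enzymes remove a dipeptide from the end of a peptide, and neprilysins cut inside it, before hydrophobic residues, which ends the action of many neuropeptides and peptide hormones. In D. melanogaster, Ance and Acer are active enzymes, whereas Ance-2, Ance-3, Ance-4 and Ance-5 lack residues of the active site. Ance is required for spermatid differentiation, and neprilysins made by males affect the fertility of their mates.

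Of the 10 genes, 4 lie on chromosome arm 2L, 2 on 2R, 3 on 3R and 1 on X in the BDGP6 assembly. Ance (FBgn0012037, 2L from 13905645 to 13909212, plus strand), Ance-2 (FBgn0032535, 13909333 to 13911719) and Ance-3 (FBgn0032536, 13914725 to 13956188) follow each other on the same strand, with 120 bases between Ance and Ance-2 and 3005 bases between Ance-2 and Ance-3. Acer (FBgn0016122, 2L from 8521933 to 8525740) lies apart from them. Ance-4 (FBgn0033366) lies on 2R from 9039728 to 9042142 and Ance-5 (FBgn0035076) on 2R from 24888628 to 24891023, both on the minus strand. Nep1 (FBgn0029843) lies on X from 6091205 to 6103971, plus strand. Nep2 (FBgn0027570, 3R from 4719458 to 4731878), Nep4 (FBgn0038818, 3R from 20652567 to 20659904) and Nep5 (FBgn0039478, 3R from 27057908 to 27064199) are on the minus strand. The exons of Acer overlap those of lmgA and lmgB, the exons of Nep1 overlap those of Mipp2, and the exons of Nep5 overlap those of RYa-R, all on the opposite strand. The libraries were directional, but whether the read assignment used strand is not given in the sources used here, so that reads of these pairs may be shared.

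In the testis the order of the mean levels was led by Acer, at 189 ± 24.0 TPM (SD, n = 4), and Ance, at 104 ± 42.7 TPM. The lowest Acer library, at 160 TPM, lay above the highest Ance library. They were followed by Nep4, at 66.1 ± 11.1 TPM, Nep5, at 27.9 ± 26.4 TPM, Nep2, at 13.6 ± 3.81 TPM, and Nep1, at 12.4 ± 10.3 TPM, and from Ance down to Ance-5 each gene overlapped the next one in that order. Ance-5 averaged 2.88 ± 1.19 TPM, and its lowest library lay above every library of Ance-4, Ance-2 and Ance-3, which averaged 0.729 ± 0.425, 0.661 ± 0.536 and 0.445 ± 0.0339 TPM.

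In the AG the order was different at the top, and 9 of the 10 means were below those of the testis. Ance led with 17.6 ± 8.85 TPM (SD, n = 4), followed by Acer with 11.96 ± 5.70 TPM, and these 2 genes overlapped. Both had more than 7 TPM in every AG library, and no AG library of any other member reached the lowest of Acer, 7.36 TPM. Ance-5, Nep2, Nep4 and Ance-3 averaged 2.74 ± 2.11, 2.003 ± 0.8004, 1.21 ± 1.46 and 1.13 ± 0.994 TPM in the AG, and Nep1, Ance-4 and Nep5 averaged 0.526 ± 0.581, 0.507 ± 0.441 and 0.505 ± 0.539 TPM, and from Ance-5 down to Nep5 each overlapped the next one. Ance-2 was last, with 0.0109 TPM in library 109 and 0 in the other 3 libraries. Summed over the means, the ACE family reached 34.0 TPM for the AG, against 298 TPM for the testis, and the neprilysins reached 4.25 TPM for the AG, against 120.0 TPM for the testis.

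**Figure D1:**
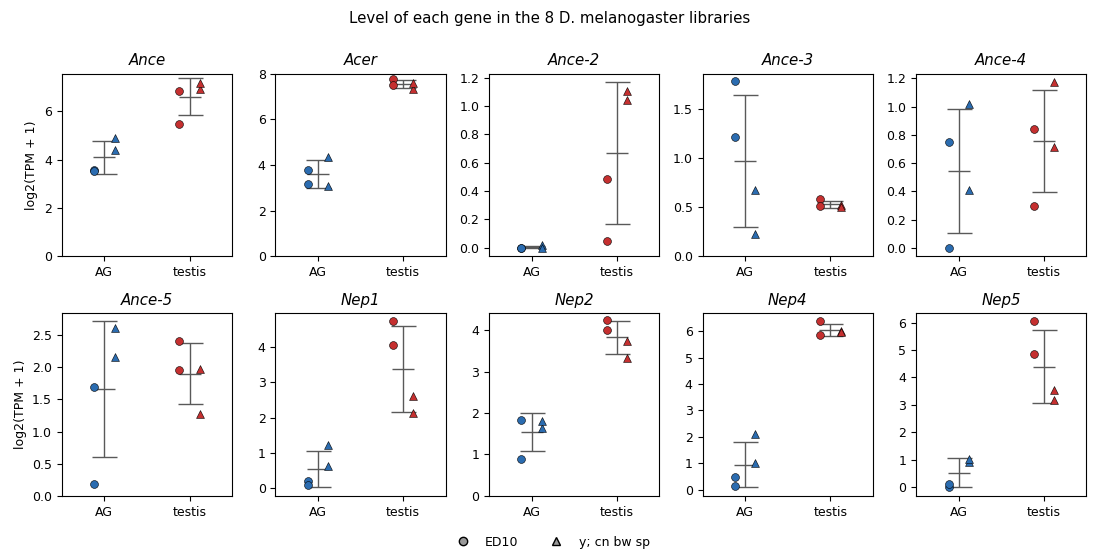
Level of the 10 genes as log2(TPM + 1) (vertical axis, a separate range for each gene) in the 4 AG (left, blue) and 4 testis (right, red) libraries, with ED10 as circles and y; cn bw sp as triangles. The grey bars are the mean and SD of the log2 values over 4 libraries. The organs do not overlap for Ance, Acer, Ance-2, Nep1, Nep2, Nep4 and Nep5, and overlap for Ance-3, Ance-4 and Ance-5.

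The comparison of the AG with the testis asks which of these peptidases each organ transcribes. Of the 10 genes, 7 were lower in the AG and none was higher (limma on log2(TPM + 1), Benjamini-Hochberg adjusted p below 0.05 over 15622 genes), where 57.4% of all genes tested passed the same test, 44.9% as lower and 12.5% as higher in the AG. The 7 genes are the same ones whose AG libraries all lay below the lowest testis library, which held for 44.4% of all genes tested. The median difference over the 10 genes was -2.39 on the log2 scale, beside -0.64 over all genes tested, and the difference was negative for 9 of the 10 genes, beside 68.4% of all genes. Fewer cells that express a gene and less RNA in each cell cannot be told apart in these whole organs.

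Ance, the secreted ACE of the fly, was lower in the AG. It had 10.8 and 10.4 TPM in the ED10 AG libraries and 20.1 and 29.1 TPM in the reference-strain AG libraries, against 114 and 43.0 TPM in the ED10 testis libraries and 118 and 141.98 TPM in the reference-strain testis libraries. All AG libraries were below all testis libraries, and library z22 was the lowest testis library by a wide margin. The AG mean was 16.9% of the testis mean, and the difference was -2.49 on the log2 scale (SE 0.49, limma adjusted p = 0.00173).

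Acer, the other active ACE, had the widest distance between the organs of the ACE family. It had 8.08 and 12.7 TPM in the ED10 AG libraries and 7.36 and 19.7 TPM in the reference-strain AG libraries, against 218 and 183 TPM in the ED10 testis libraries and 160 and 195 TPM in the reference-strain testis libraries. The 4 testis libraries were close together and the AG libraries spread more than 2-fold, far below them. The AG mean was 6.34% of the testis mean and the difference was -3.96 (SE 0.37, limma adjusted p = 1.57e-05). The overlapping genes lmgA and lmgB, which are listed with identical values, averaged 6.89 ± 2.98 TPM in AGs, against 17.1 ± 2.59 TPM in testes (SD, n = 4).

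Ance-2, which adjoins Ance, was the only member near 0 throughout the AG. It was listed at 0 in both ED10 AG libraries and at 0.0109 TPM and 0 in the reference-strain AG libraries, against 0.399 and 0.0330 TPM in the ED10 testis libraries and 1.05 and 1.15 TPM in the reference-strain testis libraries. The groups did not overlap, but library z22 came close to the AG. The difference was -0.67 on the log2(TPM + 1) scale (SE 0.23, limma adjusted p = 0.0317). The call was lost when any of the 4 AG libraries was left out (adjusted p between 0.057 and 0.0668), and without testis library 108 (0.08) or 110 (0.0776).

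Ance-3, Ance-4 and Ance-5 were low in both organs, and their groups overlapped. Ance-3 had 1.32 and 2.44 TPM in the ED10 AG libraries and 0.172 and 0.595 TPM in the reference-strain AG libraries, against 0.494 and 0.425 TPM in the ED10 testis libraries and 0.441 and 0.421 TPM in the reference-strain testis libraries. The testis libraries were nearly equal, and the 2 ED10 AG libraries stood above all other libraries. The organ difference of Ance-3 was 0.44 (SE 0.31, limma adjusted p = 0.245, 95% interval -0.25 to 1.14), and without both reference-strain AG libraries it was 0.97, with an adjusted p of 0.0116.

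Ance-4 had 0.680 TPM and 0 in the ED10 AG libraries and 0.328 and 1.02 TPM in the reference-strain AG libraries, against 0.793 and 0.228 TPM in the ED10 testis libraries and 1.26 and 0.637 TPM in the reference-strain testis libraries. No organ stood apart, and the difference was -0.21 (SE 0.27, limma adjusted p = 0.517, 95% interval -0.82 to 0.39). Ance-5 had 2.22 and 0.132 TPM in the ED10 AG libraries and 3.49 and 5.13 TPM in the reference-strain AG libraries, against 2.87 and 4.32 TPM in the ED10 testis libraries and 2.92 and 1.41 TPM in the reference-strain testis libraries. Library z21 was the one low library. The organ difference of Ance-5 was -0.24 (SE 0.52, limma adjusted p = 0.708, 95% interval -1.40 to 0.93), and without library z21 it was 0.26.

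All 4 neprilysins were lower in the AG. Nep4, which makes a membrane-bound and a soluble enzyme, had the largest difference of the 10 genes on the log2(TPM + 1) scale. It had 0.398 and 0.102 TPM in the ED10 AG libraries and 1.03 and 3.32 TPM in the reference-strain AG libraries, against 82.4 and 57.3 TPM in the ED10 testis libraries and 63.6 and 61.2 TPM in the reference-strain testis libraries. The testis libraries lay close together, whereas both reference-strain AG libraries were above both ED10 AG libraries. The AG mean was 1.83% of the testis mean, and the difference was -5.12 (SE 0.43, limma adjusted p = 9.34e-06).

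Nep5 had 0.0133 and 0.0705 TPM in the ED10 AG libraries and 0.897 and 1.04 TPM in the reference-strain AG libraries, against 27.9 and 65.1 TPM in the ED10 testis libraries and 10.5 and 7.95 TPM in the reference-strain testis libraries. The strains had opposite orders in the organs, with the ED10 libraries below the others in the AG and above them in the testis. The AG mean was 1.81% of the testis mean, and the difference was -3.88 (SE 0.62, limma adjusted p = 0.000462). The overlapping gene RYa-R, a neuropeptide receptor gene, had at most 0.0631 TPM in any AG library and at most 1.45 TPM in any testis library.

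Nep1 showed the same crossing of strains. It had 0.162 and 0.0601 TPM in the ED10 AG libraries and 1.34 and 0.542 TPM in the reference-strain AG libraries, against 15.7 and 25.5 TPM in the ED10 testis libraries and 5.13 and 3.39 TPM in the reference-strain testis libraries. No AG library reached the lowest testis library. The AG mean was 4.23% of the testis mean, and the difference was -2.85 (SE 0.58, limma adjusted p = 0.00209). Mipp2, the gene that overlaps Nep1 on the other strand, averaged 14.01 ± 4.66 TPM in AGs, against 8.59 ± 2.495 TPM in testes (SD, n = 4), and its organs overlapped.

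Nep2, a secreted neprilysin known from the testis and renal tubules of the fly, was the neprilysin with the highest AG mean. It had 2.57 and 0.837 TPM in the ED10 AG libraries and 2.13 and 2.48 TPM in the reference-strain AG libraries, against 18.0 and 14.9 TPM in the ED10 testis libraries and 12.4 and 9.02 TPM in the reference-strain testis libraries. Apart from library z21, the AG libraries were alike. The AG mean was 14.7% of the testis mean, and the difference was -2.29 (SE 0.33, limma adjusted p = 0.000237).

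**Figure D2:**
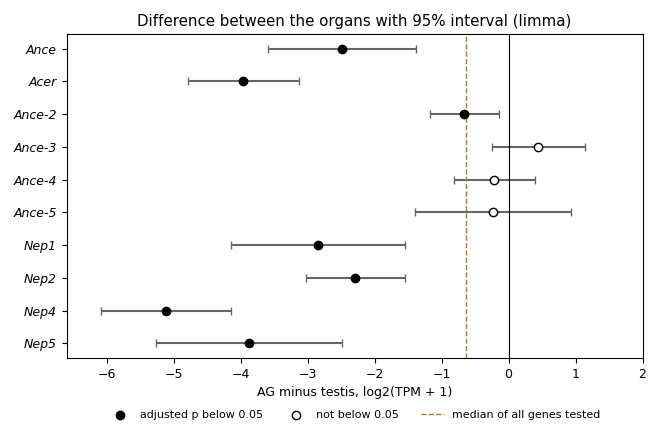
AG minus testis difference of each gene on the log2(TPM + 1) scale (horizontal axis), with its 95% interval from limma over 8 libraries. Filled points passed an adjusted p below 0.05, open points did not, and the dashed line is the median of all genes tested, -0.64. The 4 neprilysins, Ance and Acer lie below -2, Ance-2 lies beside the dashed line, and the intervals of Ance-3, Ance-4 and Ance-5 include 0.

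Since most genes were lower in the AG, the differences were also set against the median of all genes tested. That median was -0.64 with the values as deposited, -0.80 with each library rescaled to 1000000 and -0.45 with median ratio scaling. Relative to it, Nep4 was at -4.48, Acer at -3.32, Nep5 at -3.24, Nep1 at -2.21, Ance at -1.86 and Nep2 at -1.65 with the values as deposited, and these 6 genes stayed below it under both scalings. Ance-2 was at -0.03 and turned to 0.23 with each library rescaled, beside an SE of 0.23. Ance-3, Ance-4 and Ance-5 were above the median under all 3 scalings. An exact two-sided permutation test of each gene gave p = 0.0286 for the same 7 genes, the smallest p that 4 against 4 libraries allow. After adjustment over all genes it was 0.0516, and no gene of the 15622 passed.

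The AG level of each gene was also set beside that of testis germline genes, because these were read in the AG libraries. The testis mean of each gene was taken over the libraries of both strains. As a percentage of the testis mean, the 13 germline genes had medians of 0.117% and 0.00824% in the ED10 AG libraries and 0.849% and 3.65% in the reference-strain AG libraries, with highest values of 1.48%, 1.996%, 4.64% and 5.93% in that order. Ance was at 10.4% and 10.01% in the ED10 AG libraries and 19.3% and 27.9% in the reference-strain AG libraries, above the highest germline gene in 4 of 4. Nep2 was above it in 4 of 4 AG libraries, with 18.9%, 6.15%, 15.7% and 18.3%, and Acer in 3 of 4. The 5 testis somatic genes were read at a higher share, with medians of 2.86% and 0.319% in the ED10 AG libraries and 11.96% and 31.6% in the reference-strain AG libraries. In library 111 that median was above Ance, Nep2 and Acer, which was at 10.5% there. In library 109 it was above Acer, which was at 3.90% there, and below Ance and Nep2. One of the 5, Fas3, had a higher mean in the AG (40.5 TPM) than in the testis (26.3 TPM).

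On this scale Nep4 and Nep5 were within the range of the germline genes in all 4 AG libraries. Nep4 was at 0.602% and 0.154% in the ED10 AG libraries and 1.56% and 5.01% in the reference-strain AG libraries, and Nep5 at 0.0478% and 0.253% in the ED10 AG libraries and 3.22% and 3.73% in the reference-strain AG libraries. Both were higher in the reference-strain AG libraries than in the ED10 ones, as was the germline median. Nep4 was above that median in 4 of 4 AG libraries and Nep5 in 3 of 4. Of the 13 germline genes, 5 passed between the strains as lower in ED10 AGs and none as higher. Among them vas alone had a higher mean in ED10 AGs. On this scale Nep1 was above the highest germline gene in library 109 alone, at 10.8%. In the testis, Nep1 and Nep5 averaged less in the reference strain (4.26 and 9.23 TPM) than in ED10 (20.6 and 46.5 TPM). Set against testes of their own strain, their shares in the reference-strain AG libraries would be larger. On such a scale both lay above all 13 germline genes in both reference-strain AG libraries and in neither ED10 one. Nep5 had 0.897 and 1.04 TPM in the reference-strain AG libraries, beside 9.23 TPM in testes of that strain. The highest germline gene in library 111 was then Mst98Ca, with 116 TPM beside 2420 TPM. Nep4 lay above the germline genes in library 111 alone, with 3.32 TPM beside 62.4 TPM. The places given above thus hold for the testis mean over both strains. The part of testis RNA in these AG levels was not tested. Without both reference-strain AG libraries, the differences were -5.74 for Nep4, -4.34 for Nep5 and -3.24 for Nep1, larger in size than with them, and 7 genes were called, with Ance-3 added as higher and Ance-2 lost.

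**Figure D3:**
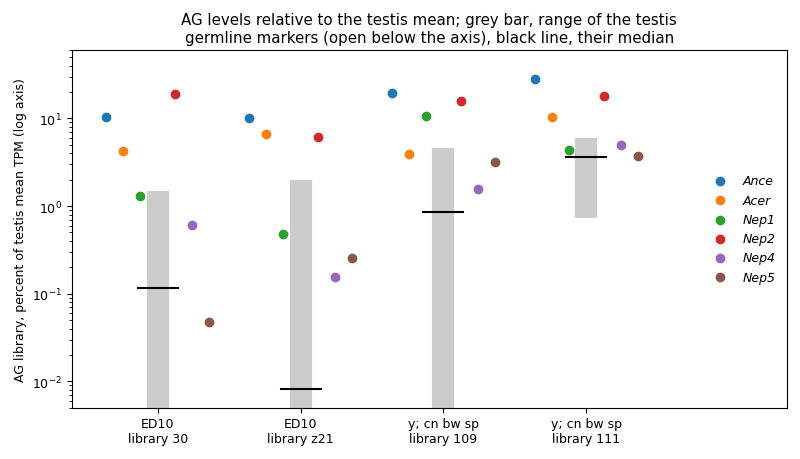
Level of 6 members in each AG library as a percentage of their own testis mean over both strains (log axis). The ED10 libraries are left and the y; cn bw sp libraries right. Grey bars give the range of the 13 testis germline genes and black lines their median, which was highest in library 111, at 3.65%. Ance and Nep2 lie above the grey bar in all 4 libraries, and Nep4 and Nep5 do not lie above it in any.

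The strains were compared within each organ. In the testis, Nep1 and Nep5 were higher in ED10 than in the reference strain, 2 of the 10 genes, where 4.42% of all genes tested passed, 1.63% as higher and 2.79% as lower. Nep1 averaged 20.6 TPM in ED10 testes and 4.26 TPM in reference-strain testes, a ratio of 4.84, and the difference was 2.02 (SE 0.39, limma adjusted p = 0.0281). Nep5 averaged 46.5 TPM in ED10 testes and 9.23 TPM in reference-strain testes, a ratio of 5.04, and the difference was 2.11 (SE 0.44, limma adjusted p = 0.0388). For both genes library z22 was the highest, library 84 lay between it and the reference strain, and the ED10 libraries lay above both reference-strain libraries, as for 31.3% of all genes tested.

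These 2 calls depended on single libraries. Without testis library 108, 110 or z22 neither gene passed, with limma adjusted p of 0.111, 0.273 and 0.0938 for Nep1 and 0.17, 0.314 and 0.0802 for Nep5, and the differences stayed between 1.69 and 2.26 for Nep1 and between 1.51 and 2.29 for Nep5. Nep5 also missed the threshold without any of the 4 AG libraries, which share the estimate of the spread (adjusted p between 0.0508 and 0.0769). Without library 84 the count was 3. The labels give AG library z21 and testis library z22, the HiSeq 2500 libraries, the same pair of library names, and with a covariate for these libraries neither gene passed (difference 1.89 and limma adjusted p = 0.0755 for Nep1, 1.79 and 0.0981 for Nep5).

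The marker lists of other cell types differed in direction between the strains in the testis. The summed level of 9 muscle genes was 407 and 1111 TPM in the ED10 testis libraries, against 243 and 321 TPM in the reference-strain testis libraries, and that of 6 neuron genes was 21.2 and 46.1 TPM in ED10, against 15.03 and 13.6 TPM in the reference strain. Most of the neuron sum was nSyb, a synaptic vesicle gene (13.8 and 42.7 TPM in ED10, against 12.5 and 10.6 TPM in the reference strain), whereas Rdl, a GABA receptor gene, had 0.287 and 0.0926 TPM in ED10, against 0.437 and 0.614 TPM in the reference strain. The sums of the ejaculatory duct and bulb genes (239 and 389 TPM in ED10, against 178 and 147.4 TPM in the reference strain), the Malpighian tubule genes (12.7 and 14.9 TPM, against 7.17 and 8.56 TPM) and the hemocyte genes (50.9 and 50.6 TPM, against 45.4 and 38.5 TPM) were also above those of the reference strain. The fat body sum was 83.5 and 40.2 TPM in ED10, against 81.9 and 100.95 TPM in the reference strain, and 13 of 15 AG seminal genes were lower in ED10 testes. In the muscle, neuron, duct, tubule, hemocyte and fat body lists no gene passed between the strains, and their part in the levels of Nep1 and Nep5 was not tested. The 13 germline genes had a median strain difference of -0.21 in the testis and none passed.

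The other members did not pass between the strains in the testis. Ance-2 came nearest, with 0.399 and 0.0330 TPM in ED10 testes, against 1.05 and 1.15 TPM in reference-strain testes (difference -0.81, SE 0.19, limma adjusted p = 0.0588). Ance was 78.7 TPM on average in ED10 testes and 130.0 TPM in reference-strain testes, with a difference of -0.87 and an interval from -2.003 to 0.26. Acer differed by 0.17, with an interval from -0.95 to 1.3, and Nep4 by 0.14, with an interval from -0.89 to 1.16, so that differences of up to about 1 on the log2 scale remain possible for both.

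In the AG, Ance-3 was the one gene that passed between the strains, where 12.1% of all genes tested passed, 2.08% as higher and 10% as lower in ED10. It averaged 1.88 TPM in ED10 AGs and 0.383 TPM in reference-strain AGs, and the difference was 1.05 (SE 0.27, limma adjusted p = 0.0424). It was higher in both ED10 AG libraries than in both reference-strain AG libraries, as were 22.8% of all genes tested. The call was lost without AG library 109 (adjusted p = 0.168) or z21 (0.183), without any of the testis libraries (between 0.0653 and 0.104) and with a covariate for the HiSeq 2500 libraries z21 and z22 (0.119), and was kept under 7 of 16 alternatives. Of all genes that passed, 82.8% were lower in ED10 AGs, and 61% with each library rescaled.

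The other 9 genes had a negative strain difference in the AG, beside 45.2% of all genes tested. The ED10 AG libraries 30 and z21 listed 23.2% and 29.95% of genes at 0, against 14.8% and 17.3% in libraries 109 and 111. The part of this in the low values was not tested. Ance, Ance-5, Nep1, Nep4 and Nep5 had both ED10 libraries below both reference-strain libraries, as had 26.6% of all genes tested. Ance-5 (difference -1.46, limma adjusted p = 0.137) and Nep4 (-1.26, adjusted p = 0.123) had an unadjusted p below 0.05. Ance averaged 10.6 TPM in ED10 AGs and 24.6 TPM in reference-strain AGs, and Nep5 0.0419 TPM in ED10 AGs and 0.969 TPM in reference-strain AGs, and neither difference passed.

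**Figure D4:**
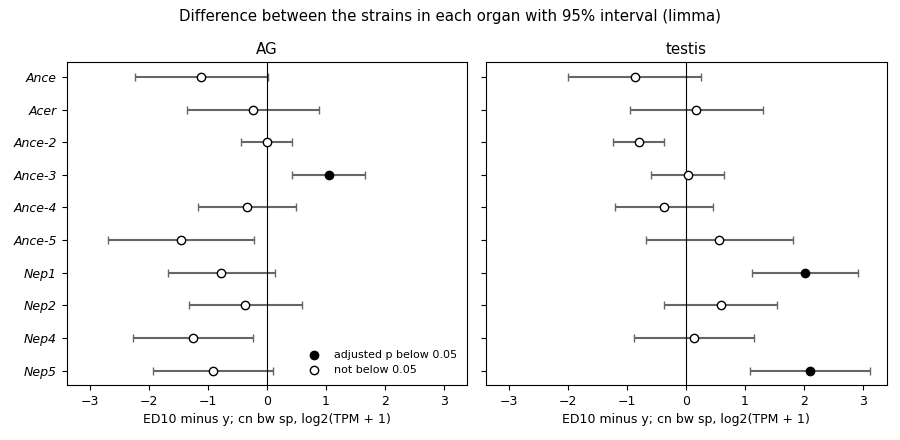
ED10 minus y; cn bw sp difference of each gene on the log2(TPM + 1) scale (horizontal axis) in the AG (left) and the testis (right), with 95% intervals from limma and 2 libraries of each strain in each organ. Filled points passed an adjusted p below 0.05. Nep1 and Nep5 lie near 2 in the testis and below 0 in the AG, and Ance-3 is the filled point of the AG.

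Whether the organ difference itself differed between the strains was tested with an interaction contrast. Nep1 and Nep5 passed with a negative value, 2 of 10, where 8.74% of all genes tested passed, 1.71% with a positive and 7.03% with a negative value. The AG minus testis difference of Nep1 was -4.25 within ED10 and -1.45 within the reference strain, a difference of -2.80 (SE 0.55, limma adjusted p = 0.0196). That of Nep5 was -5.39 within ED10 and -2.37 within the reference strain, a difference of -3.02 (SE 0.62, limma adjusted p = 0.0228). Both genes were lower in the AG within each strain. The call was lost for Nep1 without AG library z21 (0.0559) or testis library 108 (0.0733) or 110 (0.113), and for Nep5 without AG library 111 (0.0668) or z21 (0.0551) or testis library 108 (0.0923) or 110 (0.124).

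The other genes of the neprilysin family in the fly are Nep3, Nep6, Nep7 and the neprilysin-like (Nepl) genes, many of which lack residues of the active site. Of 24 listed, 22 were found and 20 tested, and 10 were lower in the AG, none was higher and 10 did not pass. Over all genes tested, 44.9% were called lower and 12.5% higher. The median difference of the 20 genes was -0.58, beside -0.64 over all genes. The largest differences were those of Nepl6 (0.492 ± 0.797 TPM in AGs, against 5.64 ± 0.512 TPM in testes, difference -2.28, limma adjusted p = 0.000314), Nepl11 (-2.19), Nepl10 (-2.07) and Nepl3 (-1.89). Summed over the 22 genes, the level was between 10.3 and 33.2 TPM in the AG libraries and between 42.2 and 55.3 TPM in the testis libraries. Between the strains in the testis none of them passed as higher in ED10 and 1 passed as lower, Nepl7, which is named after its values were seen (difference -1.43, limma adjusted p = 0.027).

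Regulatory peptides are the class of substrates that neprilysins and ACE are known for. Of 25 peptide genes, 23 were tested, 2 were higher in the AG, 12 were lower and 9 did not pass. Over all genes tested, 12.5% were called higher and 44.9% lower. The median difference of the peptide genes was -0.33, beside -0.64 over all genes. Ms, which encodes myosuppressin, an inhibitor of visceral muscle contraction, had 102 and 64.0 TPM in the ED10 AG libraries and 95.9 and 99.4 TPM in the reference-strain AG libraries, against 0.721 and 0.444 TPM in the ED10 testis libraries and 1.10 and 1.20 TPM in the reference-strain testis libraries. It was above every one of the 10 peptidase genes in each AG library, and the difference was 5.61 (SE 0.29, limma adjusted p = 2.28e-06). The other peptide gene higher in the AG was sNPF, a feeding-related neuropeptide gene, at 7.34 ± 7.57 TPM in AGs, against 0.114 ± 0.0948 TPM in testes (difference 2.44, adjusted p = 0.00569). In the AG sNPF had 7.88 and 17.8 TPM in ED10, against 1.53 and 2.11 TPM in the reference strain. This strain difference, named after its values were seen, also passed (2.21, limma adjusted p = 0.00749). Among those lower in the AG were CCAP, a cardioactive and ecdysis peptide gene (0.158 ± 0.190 TPM in AGs, against 11.2 ± 1.69 TPM in testes, difference -3.41), and Dh44, a diuretic hormone gene (0.0420 ± 0.0558 TPM in AGs, against 3.67 ± 0.516 TPM in testes, difference -2.16).

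Of 19 peptide receptor genes, 18 were tested, and 1 was higher in the AG, 8 were lower and 9 did not pass. The shares over all genes were 12.5% higher and 44.9% lower, and the median difference was -0.37, beside -0.64 over all genes. The one that was higher was MsR2, a receptor for myosuppressin, with 3.51 and 4.31 TPM in the ED10 AG libraries and 1.55 and 2.87 TPM in the reference-strain AG libraries, against 0.0170 and 0.255 TPM in the ED10 testis libraries and 0.108 and 0.122 TPM in the reference-strain testis libraries. All AG libraries were above all testis libraries (difference 1.81, SE 0.26, limma adjusted p = 0.000265). MsR1, the other myosuppressin receptor gene, named after its values were seen, was lower in the AG, at 0.0381 ± 0.0291 TPM in AGs, against 0.376 ± 0.147 TPM in testes (difference -0.40, limma adjusted p = 0.0173). The largest decreases were those of TkR86C (-1.75), a tachykinin-related receptor, NPFR (-1.43), the receptor of neuropeptide F, and CCKLR-17D3 (-1.304), a sulfakinin receptor.

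Of 9 other peptidase genes, 1 was higher in the AG, 3 were lower and 5 did not pass, beside 12.5% higher and 44.9% lower over all genes. Their median difference was -0.95, beside -0.64 over all genes. Most of the 9 encode enzymes that act on the ends of peptides. The cytosolic enzymes DppIII (112 ± 44.8 TPM in AGs, against 534 ± 90.7 TPM in testes, difference -2.32) and Psa (64.7 ± 41.6 TPM in AGs, against 306 ± 67.0 TPM in testes, difference -2.49) had higher means than Ance and Acer in both organs. Dip-B was the third that was lower (-1.81), and svr, a carboxypeptidase D gene, was the one that was higher (37.3 ± 18.96 TPM in AGs, against 12.7 ± 1.97 TPM in testes, difference 1.3, limma adjusted p = 0.0403). The organs overlapped for svr, whose lowest AG library, at 11.7 TPM, lay within the testis range of 9.96 to 14.4 TPM.

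The genes nearest in pattern to Acer and Ance, the 2 members with the highest mean, were found by the Euclidean distance of log2(TPM + 1) over the 8 libraries. Nearest to Acer were OXA1L (distance 0.60, with 9.92 TPM on average in AGs and 203 TPM in testes), AIF (0.61) and CG5555 (0.72). Nearest to Ance were HIP-R (distance 1.25, with 22.6 TPM on average in AGs and 106 TPM in testes), CG10731 (1.35) and CG10588 (1.44), so that Ance had no gene as near as those of Acer.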

How the data were processed

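The members and gene lists were chosen with earlier results of these data known. The deposited values are TPM by the authors, who trimmed directional paired-end reads of poly(A) RNA, mapped them with STAR 2.5.3 to D. melanogaster annotation r6.12 and estimated transcripts with StringTie (1.3.4 in the submitters' processing notes, 2.1.4 in the paper's methods). The paper states that its D. melanogaster testis estimates came from an earlier study and that the AG libraries followed that study's methods. The source of the estimates and the organ thus cannot be told apart. Because the totals exceed 1000000, the deposited values were read as a normalized signal. Of 22 tables, 2 were used. Depth per library is unknown, so no counting interval is given. The 12 runs make 8 libraries, 1 column each.

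Genes with a mean of at least 0.1 TPM over 8 libraries (15622) were tested on log2(TPM + 1), whose fold changes understate those of low genes, with limma 3.58.1 (lmFit, eBayes with trend and robust) in R 4.3.3, Benjamini-Hochberg over all genes, threshold 0.05. The organ test used all 8 libraries. Strain and interaction contrasts used a model with 4 groups of organ and strain, and all share the same libraries. The fit was tested on simulated data. The labels do not say whether libraries of a strain came from separate rearings, so p-values measure the spread between these libraries. The 10 members are named with all 8 values, lists by counts and the largest called differences, and the 3 nearest genes of the 2 highest members. Positions are from the Ensembl 115 annotation of BDGP6, which held 17502 of 17727 identifiers, and no sequence was used here. Alternatives covered the pseudocount, filter, scaling, gene set, eBayes settings, single libraries, platform, strain and an exact permutation test. The alternatives without both reference-strain AG libraries and with a covariate for the HiSeq 2500 libraries z21 and z22, which share their library names in the labels, were chosen after seeing the data.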

Additional observations from a re-analysis of the deposited data

Results flagged for a closer look

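Nep1 and Nep5 had an organ difference that differed between the strains by the interaction test, by -2.80 for Nep1 and -3.02 for Nep5 on the log2(TPM + 1) scale, ED10 minus y; cn bw sp. Nep1 averaged 0.111 TPM in ED10 AGs and 0.941 TPM in reference-strain AGs, and 20.6 TPM in ED10 testes and 4.26 TPM in reference-strain testes. Nep5 averaged 0.0419 TPM in ED10 AGs and 0.969 TPM in reference-strain AGs, and 46.5 TPM in ED10 testes and 9.23 TPM in reference-strain testes. In each organ the libraries of the strains did not overlap for either gene. Both ED10 libraries were above the others in the testis, as for 31.3% of all genes tested. In the AG both were below the others, as for 26.6% of all genes tested. Ance-2 in the AG had 1 library apart from the others, 109, at 0.0109 TPM, where the other 3 were listed at 0. Chance alone sets a library apart in this way in about 1 in 20 groups of continuous values, and 20 groups of 4 libraries were examined. With the other 3 libraries at 0, any value above 0 is set apart, so that this rate does not apply to Ance-2.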

How the results depend on the processing

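Ance, Acer, Nep1, Nep2, Nep4 and Nep5 kept their direction and an adjusted p below 0.05 in the organ comparison under 22 of 23 alternatives each, the exact permutation test being the exception, at 0.0516. That test called 0 of the 10 genes and none of the 15622, with limma at 7 of 10 and 9685 of 15622 genes at an unadjusted p below 0.05. Leaving out single libraries gave 6 to 7 called members. Ance-2 lost its call under 10 of 22 alternatives. The organ difference of Ance-5 reversed to 0.10 with median ratio scaling, 0.26 without library z21 (between -0.557 and 0.26 with single libraries left out), 0.43 without both HiSeq 2500 libraries and 0.77 within y; cn bw sp alone, and that of Ance-3 to -0.066 within y; cn bw sp alone, and none of these values was called.

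The strain counts were less stable. In the AG, the count of called members was 3 with a pseudocount of 0.1, all lower in ED10 and without Ance-3, 3 with median ratio scaling, 1 higher and 2 lower, 0 with a filter of 1 TPM, with plain eBayes and with a covariate for the HiSeq 2500 libraries z21 and z22, and 0 to 2 with single libraries left out. In the testis it was 0 with a pseudocount of 0.1 and with that covariate, and 0 to 3 with single libraries left out, and with median ratio scaling the 2 calls were 1 higher and 1 lower. The interaction count was 2 with that covariate and 0 to 3 with single libraries left out. The filter of 1 TPM removes Ance-3 from the test, and for the other counts the cause was not tested. No paired analysis was possible because the library numbers are not shared between groups, although the labels give AG library z21 and testis library z22 the same pair of library names. The unknown depth limits levels near 0, such as those of Ance-2, and 2 libraries per strain and organ limit the strain comparisons.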
